A study of Homo sapiens with 12 samples.

Results

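The comparison described here is Ota against control after 72 h in HK-2 cells, an immortalized line from the human renal proximal tubule. Its members were the 3 arrays labelled Ota, high dose, 72 h and the 3 control arrays labelled with the same time, 6 of the 12 arrays of the study. The other 6 arrays were the corresponding groups at 24 h, again 3 and 3, and entered the fit to estimate the spread between arrays. The labels name the compound only as Ota and the dose only as high, with no amount. Control cells received the vehicle, and both groups were grown in a medium with EGF, hydrocortisone, insulin, transferrin and selenium and were treated near confluence. All cells came from this 1 line. The arrays are labelled biological replicates, and no label ties them to separate cultures, so p-values here rest on array-to-array spread, which may be partly technical. Total RNA was measured on a whole-transcriptome Affymetrix array, and every level below is a log2 GCRMA value as deposited.

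Proximal tubule cells reabsorb most of the filtered solute and rely on a large secretory and mitochondrial apparatus. Cells respond to shortage of amino acids or misfolded protein through ATF4, a transcription factor that switches on genes for amino acid uptake, amino acid synthesis and tRNA charging, and through XBP1 and ATF6, which switch on chaperones of the endoplasmic reticulum (ER). Histone genes of the chromosomal clusters are normally transcribed in S phase into messages that end in a stem-loop and carry no poly(A) tail, so an assay that primes on poly(A) sees their tailed forms best.

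At 72 h the Ota arrays differed from the controls in most of the genes measured. Of 10729 genes tested with limma, 6445 passed a Benjamini-Hochberg adjusted p of 0.05, 60.1% of the genes. Of these, 2665 rose (24.8% of all tested genes) and 3780 fell (35.2%), and for 7905 genes (73.7%) the 3 Ota arrays did not overlap the 3 control arrays. The falls were the larger changes, since 335 genes fell and 114 rose by at least 3 on the log2 scale. In total, 564 genes fell to an Ota mean under 4, a level near the background of these arrays, and 223 rose from a control mean under 4. The plot of Ota level against control level shows genes moving off the diagonal over the whole range of expression.

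**Figure D1:**
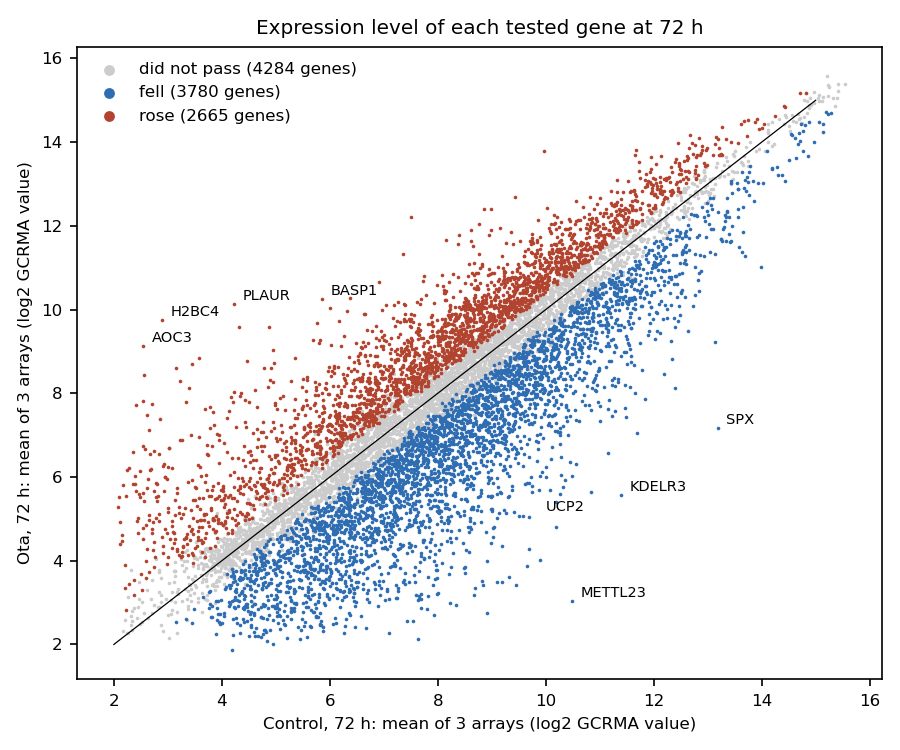
Mean log2 GCRMA value of each of the 10729 tested genes in the 3 control arrays (horizontal) and the 3 Ota arrays (vertical) at 72 h. Points are genes, coloured by the limma call, the line marks equal levels, and the 3780 genes that fell lie below it and the 2665 that rose above it; with scaling to poly-A spike-ins 6718 fell and 555 rose.

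How many genes count as higher or lower depended on the scale. The 24 probe sets for poly-A RNA spiked into each sample averaged 8.91 ± 0.37 (SD, n = 3) on the Ota arrays and 8.02 ± 0.03 on the controls, and the median of the tested genes was 7.68 ± 0.05 against 7.96 ± 0.02. The median log2 fold change of all genes was -0.11 as deposited, 0.17 after each array was centred on its median and -1.003 after each array was scaled to the spike-ins. The share of calls that rose was 41.3% as deposited, 56.1% with centring and 7.63% with the spike-ins, where 555 genes rose (5.17%) and 6718 fell (62.6%). For the main gene groups below the median is therefore also given relative to that of all genes (the relative median), and spike-in counts stand beside each group that has more rises than falls. In bulk RNA, fewer cells of a kind and less RNA per cell cannot be told apart. Probe sets for 18S rRNA averaged 8.74 ± 0.23 on the Ota arrays and 7.40 ± 0.27 on the controls, and the difference between the 3-prime and 5-prime probe sets of ACTB was 1.97 ± 0.33 against 1.39 ± 0.15. For these 4 array-wide measures the groups did not overlap, and the exact two-sided permutation p was 0.1, the smallest that 3 against 3 arrays can give. The 3-prime and 5-prime probe sets of GAPDH differed by -0.02 ± 0.07 on the Ota arrays and -0.06 ± 0.01 on the controls. In this measure the groups overlapped, with an exact two-sided permutation p of 0.7. The part of all these measures in the results was not tested.

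The labelled cell type was checked against its markers. Of 9 proximal tubule markers on the array, LRP2, CUBN, SLC34A1, SLC5A2, SLC22A6, AQP1, ANPEP and GGT1 were under 4 on all 6 arrays, so that only PAX8, a renal epithelial transcription factor, was measured. All 8 endothelial and all 6 leukocyte markers on the array stayed under 4. Of 8 fibroblast markers 4 were measured, and LUM, a matrix proteoglycan, was at 9.08, 8.72 and 8.64 with Ota and 7.34, 7.06 and 7.39 in controls (rise of 1.55, 0.66 with spike-in scaling). The other 3 did not pass, with differences of 0.55 for DCN, 0.55 for COL1A1 and -0.31 for FBLN1. Of 6 podocyte markers on the array 4 were measured, of which PTPRO and NES rose, by 0.65 and 0.51 (-0.24 and -0.38 with spike-in scaling, neither past the test), and PODXL and SYNPO did not pass; NPHS1 and WT1 were under 4. Of 7 distal tubule and collecting duct markers AQP3, a water and glycerol channel, was the 1 measured, at 8.47, 8.75 and 7.70 against 6.10, 6.37 and 6.39 (rise of 2.02, 1.13 with spike-in scaling). The part of these markers in the results was not tested.

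Promoter sequences are shown for genes from 4 groups treated below: cluster histones, ER chaperones, ATF4 targets and metallothioneins. They are the 200 bases before the RefSeq start on GRCh38.p14, written 5′ to 3′ on the strand of the gene, and were picked for display because they hold the motif searched.
H2BC4, chr6:26123927-26124126, minus strand: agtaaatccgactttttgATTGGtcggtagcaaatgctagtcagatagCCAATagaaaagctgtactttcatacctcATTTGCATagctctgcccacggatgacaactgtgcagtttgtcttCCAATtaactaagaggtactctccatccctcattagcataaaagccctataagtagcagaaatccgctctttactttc
H2BC9, chr6:26251414-26251613, plus strand: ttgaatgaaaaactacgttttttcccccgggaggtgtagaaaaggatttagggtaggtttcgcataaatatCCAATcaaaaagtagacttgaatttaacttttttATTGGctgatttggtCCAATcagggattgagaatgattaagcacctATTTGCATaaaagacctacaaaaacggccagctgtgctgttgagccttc
HSP90B1, chr12:103930210-103930409, plus strand: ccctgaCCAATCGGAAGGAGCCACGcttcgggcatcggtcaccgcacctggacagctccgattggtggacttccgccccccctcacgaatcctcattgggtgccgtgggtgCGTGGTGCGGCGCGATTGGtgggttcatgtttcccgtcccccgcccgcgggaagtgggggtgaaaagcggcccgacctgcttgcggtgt
XBP1, chr22:28800570-28800769, minus strand: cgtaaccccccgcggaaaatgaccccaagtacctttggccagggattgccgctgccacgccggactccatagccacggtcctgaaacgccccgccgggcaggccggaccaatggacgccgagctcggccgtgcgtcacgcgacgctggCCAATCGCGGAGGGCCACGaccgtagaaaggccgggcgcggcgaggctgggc
ASNS, chr7:97872409-97872608, minus strand: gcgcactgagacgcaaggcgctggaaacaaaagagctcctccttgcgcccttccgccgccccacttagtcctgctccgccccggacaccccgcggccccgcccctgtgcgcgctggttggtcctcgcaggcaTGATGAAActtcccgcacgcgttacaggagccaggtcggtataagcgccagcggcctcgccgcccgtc
MT1X, chr16:56682270-56682469, plus strand: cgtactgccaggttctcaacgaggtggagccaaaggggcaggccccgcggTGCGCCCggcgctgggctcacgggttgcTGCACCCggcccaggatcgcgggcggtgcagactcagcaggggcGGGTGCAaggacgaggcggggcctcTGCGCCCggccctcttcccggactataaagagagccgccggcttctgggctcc
Capitals mark, on either strand, ATTTGCAT (the octamer bound by OCT1) and CCAAT in the histone genes, the ER stress element (CCAAT and CCACG with any 9 bases between them) in HSP90B1 and XBP1, TGATGNAA (the core of the amino acid response element) in ASNS and TGCNCNC (the core of the metal response element) in MT1X. Each motif was searched on both strands over the 250 bases before the start in 27305 RefSeq promoter windows. CCAAT is part of the ER stress element, and windows that hold the second therefore always hold the first.

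The octamer was in 1.66% of all windows and in 11 of the 18 windows of measured cluster histones (61.1%), and TATAAA was in 11.1% and in 13 of 18 (72.2%). The ER stress element was in 22 windows of all genes (0.0806%). It was in 7 of the 23 windows of measured ER chaperone and folding genes (30.4%), and in 6 of the 18 of those that fell (33.3%). TGATGNAA was in 3.19% of all windows and in 4 of the 16 ATF4 targets that fell (25%), which were ATF3, ASNS, CHAC1 and HERPUD1. TGCNCNC is short and was in 48.4% of all windows, and all 3 metallothionein genes with a window held it. These matches describe the sequences and carry no test.

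Gene lists are described by the members that exceeded 4 on at least 3 of the 12 arrays, called measured. A gene that passed only on the Ota arrays had to differ, so counts over lists are descriptions. Many members were named for their large changes, and 73.7% of all tested genes had no overlap between groups. A lack of overlap in named members is therefore a description too. Cluster histones had the highest share of rises among the 42 lists. Of 60 replication-dependent histone genes listed, 18 were measured, of which 17 rose and none fell (15 and none with spike-in scaling). The median level of the 18 was 6.18, 6.43 and 6.32 on the Ota arrays and 3.40, 3.36 and 3.30 on the controls. These control medians were near background, where a fall can hardly be seen, so no size of change is given for the list. H2BC4, an H2B gene whose promoter is shown above, was at 9.86, 9.87 and 9.52 with Ota and at 3.26, 3.25 and 2.17 in controls. H2BC9 was at 9.54, 9.61 and 9.62 against 4.34, 4.08 and 4.52. For H1-2, a linker histone, the Ota arrays read 8.79, 8.54 and 9.20 and the controls 3.69, 3.50 and 3.57. In each of these genes every Ota array was far above every control array. The controls of H2BC4 and H1-2 were near background, so no size of change is given for them. Both directions occurred among 10 genes listed as replacement variants, a class whose messages usually carry poly(A) tails. Of these 6 rose and 3 fell (2 rose and 4 fell with spike-in scaling). H2BC12L, counted on this list, was at 11.93, 12.35 and 12.33 against 7.61, 7.29 and 7.61. Its sequence is close to that of the cluster gene H2BC12, which rose by 3.82, so the 2 may share probes and their values are uncertain. Whether H2BC12L messages carry poly(A) tails was not tested. MACROH2A1, a variant of silent chromatin, rose by 1.58, while H1-10 fell by 1.74. Among 14 factors that process histone messages 7 rose and none fell, but with spike-in scaling none rose and 6 fell. SLBP, which binds the stem-loop, was 1.53 higher as deposited and 0.64 with the spike-ins (limma adjusted p = 0.075).

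Genes of the ATF4 programme were lower at 72 h. Of 23 measured targets 18 fell and 2 rose, and their median relative to that of all genes was -1.97. DDIT3, which encodes CHOP, was at 8.11, 7.54 and 7.96 with Ota and at 11.74, 11.73 and 12.04 in controls, a difference of -3.97 ± 0.31 (SE; limma adjusted p = 9.0e-07). ALDH1L2, a mitochondrial folate enzyme, was at 4.19, 3.67 and 3.27 against 8.43, 8.32 and 8.78. ASNS, asparagine synthetase, was at 9.00, 9.17 and 8.49 against 11.66, 11.43 and 11.61. In all 3 genes the groups were separated by more than 2 log2 units. ATF4 itself fell by 2.26. The exceptions were STC2, a secreted glycoprotein, which rose by 3.05, and GDF15, a stress cytokine, which rose by 1.27 (0.38 with spike-in scaling).

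Amino acid supply and charging, which ATF4 serves, had more falls than rises. These lists can share members with the list of ATF4 targets, so they are not separate from it. ALDH1L2, for example, is on both the ATF4 list and the serine and one-carbon list. Of 18 amino acid transporters 12 fell and 1 rose (relative median -1.30). SLC7A11, the cystine importer, was at 7.56, 6.83 and 7.66 with Ota and at 10.93, 11.02 and 11.07 in controls (difference of -3.66 ± 0.22), and SLC3A1, a partner of cystine and dibasic amino acid transport, fell by 3.34. Of 15 enzymes of serine and one-carbon metabolism 11 fell and 1 rose (relative median -1.27). CBS, which joins serine to homocysteine, was at 3.23, 2.90 and 3.42 against 8.54, 8.62 and 8.87, so that the Ota arrays were near background. The serine pathway enzymes PHGDH and PSAT1 fell, with differences of -2.14 and -2.22. TYMS, thymidylate synthase, was 1.27 higher as deposited and 0.39 with the spike-ins (limma adjusted p = 0.23). Of 17 cytosolic tRNA synthetases 11 fell and none rose, with a relative median of -0.81. AARS1, the alanine enzyme, was at 7.61, 7.29 and 7.82 against 11.31, 11.16 and 11.40, and SARS1 and WARS1 fell, by differences of -2.40 and -1.64, whereas NARS1 and CARS1 differed by -0.03 and -0.02 and did not pass. Of 15 mitochondrial tRNA synthetases 6 fell and none rose, a share of falls of 40% beside 35.2% of all genes.

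Chaperones and folding enzymes of the ER fell as a group: 19 of 26 fell, 1 rose, and the relative median was -1.10. SDF2L1, an ER chaperone component, was at 6.17, 5.67 and 5.95 with Ota and at 10.34, 10.04 and 10.68 in controls, a difference of -4.42 ± 0.18. HYOU1, an exchange factor of the chaperone BiP, was at 8.66, 8.43 and 8.58 against 11.94, 11.31 and 12.11. HSP90B1 and XBP1, whose promoters are shown above, fell, with differences of -1.80 and -1.84. The groups did not overlap in any of these genes. HSPA5, which encodes BiP, fell by 1.19, while DNAJB11 and CANX differed by -0.05 and 0.19 and did not pass. DERL1, of ER-associated degradation, was 1.15 higher as deposited and 0.27 with spike-in scaling (limma adjusted p = 0.38).

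Genes of import into and transport out of the ER had a share of falls near that of all genes. Of 45 translocon, signal peptidase and vesicle coat genes 17 fell (37.8% beside 35.2% of all genes) and 8 rose (17.8% beside 24.8%), and their relative median was -0.04. KDELR3, a receptor that returns ER proteins from the Golgi, was at 5.98, 7.66 and 3.04 against 11.37, 11.22 and 11.59. The 3 Ota arrays were all below the controls but spread over more than 4 log2 units, and the difference of -5.83 became -4.57 without the third Ota array and -6.88 without the second. The COPII coat genes SEC31A and SEC24D fell, with differences of -2.41 and -2.34, whereas COPE, of the COPI coat, rose by 0.97 (0.08 with spike-in scaling).

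**Figure D2:**
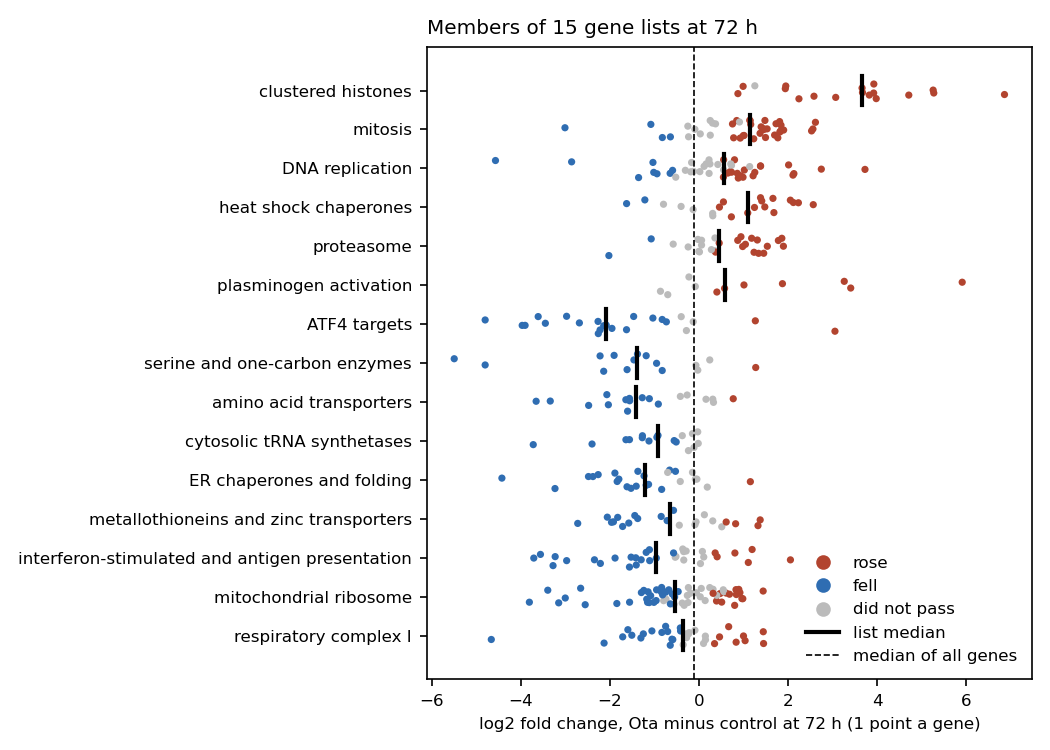
Log2 fold change (Ota minus control at 72 h) of each measured member of 15 gene lists. Points are genes coloured by the limma call, thick bars are list medians and the dashed line is the median of all genes (-0.11); cluster histones lie furthest to the right and ATF4 targets furthest to the left, and with spike-in scaling the all-gene median moves to -1.003.

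Genes of the heat shock list, which holds chaperones and the factor HSF1, moved the other way from ER chaperones. Of 21 measured, 14 rose and 2 fell, at a relative median of 1.21 (6 rose and 5 fell with spike-in scaling). DNAJB6, a co-chaperone, was at 10.42, 10.04 and 10.33 with Ota and at 7.88, 7.64 and 7.56 in controls, and rose by 2.57 ± 0.32. BAG3, an HSP70 co-chaperone, was at 11.15, 10.89 and 10.58 against 8.76, 8.57 and 8.60. Neither gene overlapped between groups, and both rose with spike-in scaling too, by 1.68 and 1.34. HSF1, the factor that drives heat shock genes, fell to near background, at 3.41, 3.42 and 3.42 against 5.04, 5.07 and 5.02. Among 27 proteasome subunits 15 rose and 2 fell, with a relative median at 0.57 (4 rose and 8 fell with spike-in scaling). PSMD1, a regulatory subunit, was at 12.07, 12.09 and 12.03 against 10.08, 10.25 and 10.17, while PSMD4, a ubiquitin receptor of the same particle, fell by 2.02.

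Cell division genes were higher. Of 41 mitotic genes 28 rose and 4 fell, at a relative median of 1.26 (11 rose and 8 fell with spike-in scaling). ANLN, a scaffold of the cleavage furrow, was at 11.17, 11.46 and 11.35 with Ota and at 8.54, 9.05 and 8.70 in controls, a rise of 2.56 ± 0.20. PLK4, the kinase of centriole duplication, was at 8.44, 8.90 and 8.46 against 6.40, 5.97 and 5.85. NCAPH, of condensin, was at 7.37, 7.59 and 7.94 against 5.31, 5.37 and 4.38. All 3 Ota arrays exceeded all 3 controls in each gene. CDC25B, a phosphatase that starts mitosis, went against the list and fell by 3.01.

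Of 44 replication genes 20 rose and 8 fell, with a relative median at 0.67 (5 rose and 17 fell with spike-in scaling). MCM10, which helps activate the helicase, was at 7.93, 8.08 and 7.71 against 3.93, 4.53 and 4.07, a rise of 3.73 ± 0.20, and ORC6, of the origin complex, rose by 2.75. RFC4, a clamp loader subunit, was at 6.08, 6.03 and 5.14 against 10.20, 10.46 and 10.30, and PRIM1, the small primase subunit, fell by 2.86. The list thus held changes of both directions with no overlap between groups. Of 23 G1 cyclins, their phosphatase and inhibitors 11 rose and 4 fell (7 and 8 with spike-in scaling). CDC25A was at 7.61, 7.65 and 7.45 against 3.99, 4.41 and 3.99, and the E cyclins CCNE1 and CCNE2 rose by 2.31 and 2.51. CDKN1A, the inhibitor p21, rose by 2.17, to 10.79, 10.56 and 11.27 from 8.79, 8.72 and 8.61. The list of p53 targets, which includes CDKN1A, had no common direction. Of 22 measured 6 rose (27.3% beside 24.8% of all genes) and 6 fell (27.3% beside 35.2%). TP53I3, an oxidoreductase, was at 2.70, 3.43 and 3.14 against 7.58, 7.55 and 7.82. Of 27 genes of break and crosslink repair 10 rose and 4 fell (3 and 12 with spike-in scaling), among them BLM, the Bloom helicase, which was at 7.00, 7.65 and 6.84 against 4.24, 3.34 and 3.78. In nucleotide synthesis 9 of 22 rose and 7 fell (1 and 9 with spike-in scaling), with falls in CAD (-2.31), which starts pyrimidine synthesis, and in IMPDH2 (-2.11), of guanine nucleotide synthesis, and a rise of 1.55 in PPAT, which starts purine synthesis.

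**Figure D3:**
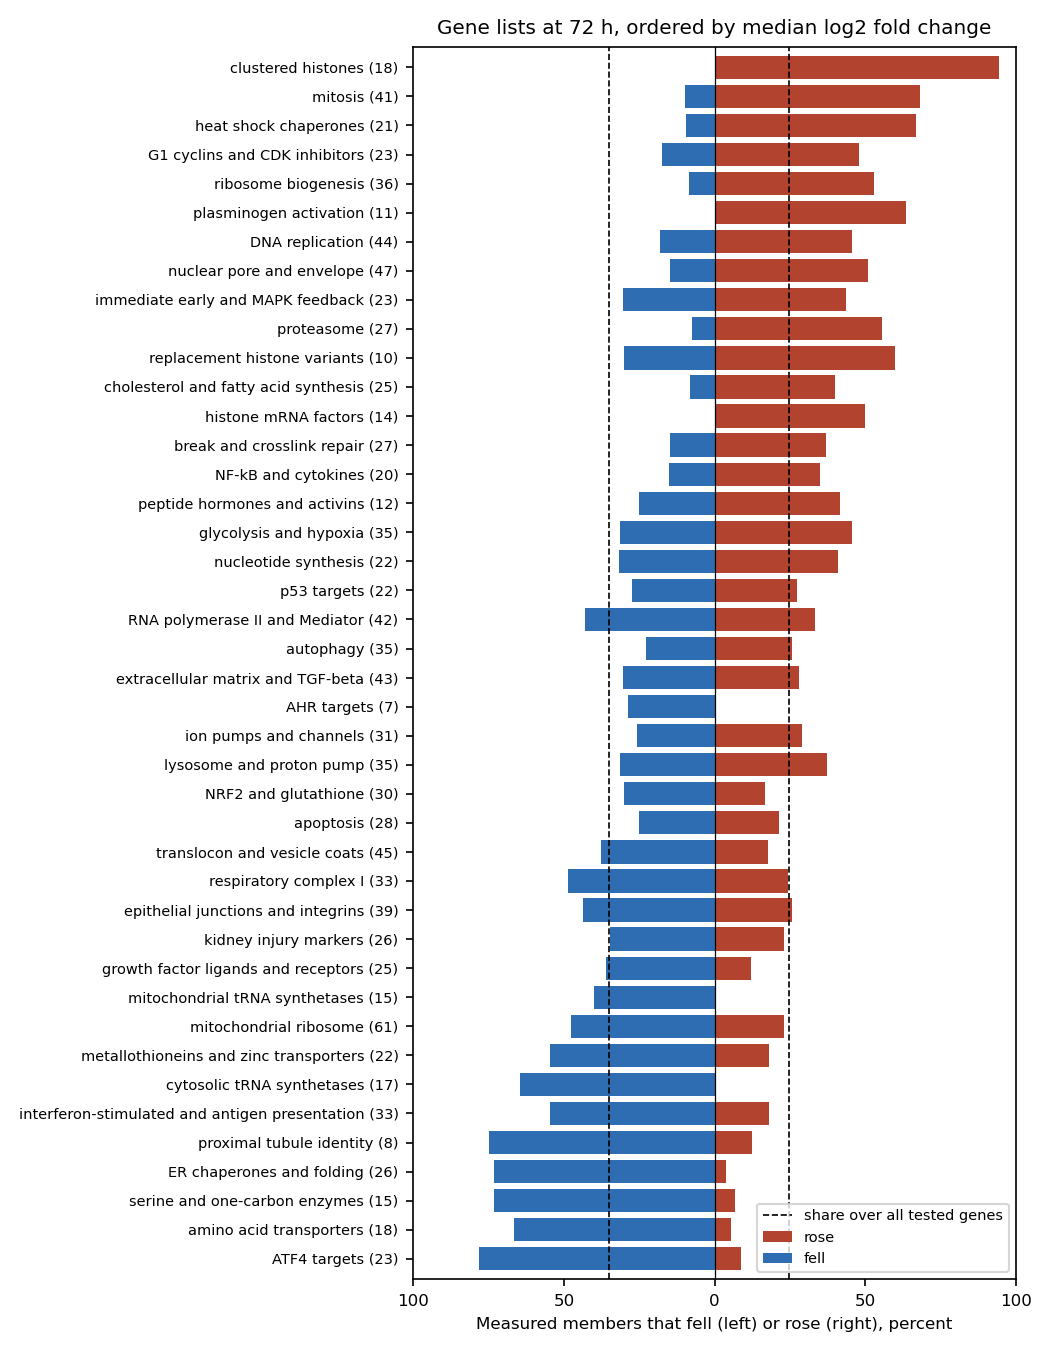
Share of the measured members (number in brackets) of 42 gene lists that rose (right) or fell (left) in the limma test at 72 h, ordered by list median. Dashed lines mark the shares over all tested genes (24.8% rose, 35.2% fell); 21 lists had more rises than falls as deposited and 3 with scaling to poly-A spike-ins.

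Rises were ranked among called genes with both group means over 5, no overlap between groups and all probe sets agreeing in direction. The 15 largest of these held 4 genes of the H2A and H2B families and several genes of the cell surface and its proteolysis. BASP1, a membrane-bound protein of the cell cortex, was at 10.09, 10.08 and 10.55 with Ota and at 5.92, 6.29 and 5.38 in controls, a rise of 4.38 ± 0.23. CDCP1, a surface substrate of Src kinases, was at 9.97, 9.77 and 10.19 against 6.19, 6.27 and 6.51, and PRSS23, a secreted serine protease, was at 10.79, 10.38 and 10.79 against 6.85, 7.05 and 6.86. The arrays of each group lay within about a log2 unit of each other in these genes and the groups were well apart. TM4SF1, a membrane protein related to tetraspanins, rose by 3.53, CD44, the hyaluronan receptor, by 3.39, DUSP10, a phosphatase of stress kinases, by 3.47 and ELL2, an elongation factor of RNA polymerase II, by 3.41. H2AC6, H2BC5, MGC16275, LNP1 and STRIP2 completed the set with PLAU, H2BC12L and H2BC12. Each of the 15 genes also rose with quantile normalization, centring and spike-in scaling.

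**Figure D4:**
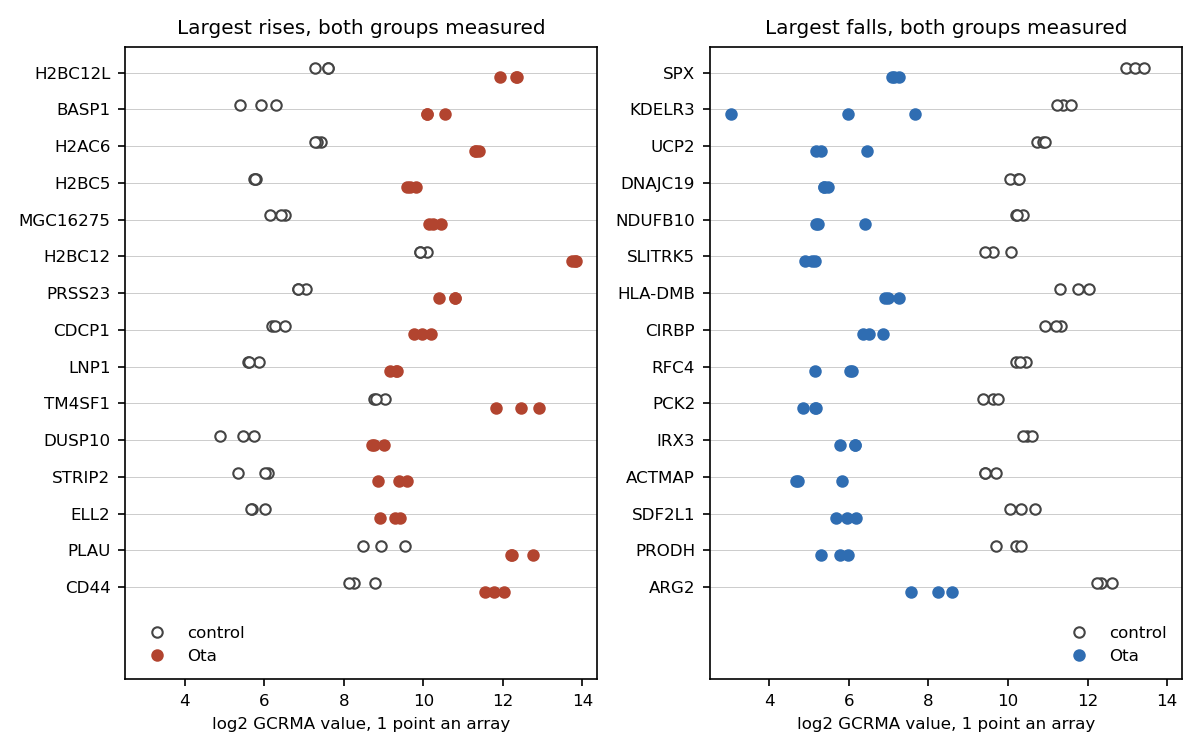
Log2 GCRMA values of the 15 largest rises (left) and 15 largest falls (right). The genes were picked among called genes with both group means over 5, no overlap between groups and all probe sets in one direction. Open points are the 3 control arrays and filled points the 3 Ota arrays at 72 h. KDELR3 shows the widest spread, from 3.04 to 7.66 on the Ota arrays.

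The 15 largest falls were chosen by the same rule. SPX, the peptide hormone spexin, was at 7.09, 7.13 and 7.26 with Ota and at 12.96, 13.20 and 13.41 in controls, a difference of -6.03 ± 0.24. UCP2, an inner membrane carrier of mitochondria, was at 5.29, 6.45 and 5.17 against 10.72, 10.88 and 10.92, and the second Ota array was the nearest to the controls. PCK2, the mitochondrial form of phosphoenolpyruvate carboxykinase, was at 4.86, 5.18 and 5.14 against 9.62, 9.37 and 9.75. The differences were -4.27 for ARG2, mitochondrial arginase, -4.38 for PRODH, which oxidizes proline, and -4.78 for DNAJC19, of the mitochondrial import motor. HLA-DMB, which loads class II molecules, differed by -4.65, CIRBP, a cold-inducible RNA-binding protein, by -4.58 and IRX3, a transcription factor of nephron patterning, by -4.46. The set also held KDELR3, NDUFB10, SLITRK5, RFC4, ACTMAP and SDF2L1.

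Genes that appeared from or vanished to background are given without an order. AOC3, an amine oxidase, was at 9.36, 8.93 and 9.09 with Ota and at 2.54, 2.53 and 2.57 in controls, and GAL, the neuropeptide galanin, was at 8.46, 8.96 and 8.41 against 3.51, 2.53 and 3.39. The meiotic mismatch repair gene MSH4 and the actin regulator AVIL also rose from control means under 4, with SPMIP1, ZNF513, H2BC4 and H1-2. METTL23, a methyltransferase, was at 3.10, 3.04 and 2.99 against 10.45, 10.56 and 10.46, and GCAT, an enzyme of threonine breakdown, was at 3.40, 3.55 and 3.91 against 9.19, 9.30 and 9.45. SYNE2, a nuclear envelope spectrin repeat protein, was at 4.55, 3.39 and 3.70 against 9.91, 9.70 and 9.32. RUFY1, GPR160, WDR13, PET117 and HOGA1 fell to Ota means under 4 as well.

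Several genes of the urokinase system rose. Of 11 measured genes 7 rose, none fell and 4 did not pass (4 rose and 4 fell with spike-in scaling). PLAUR, the urokinase receptor, was at 9.92, 10.44 and 10.04 with Ota and at 4.38, 4.02 and 4.27 in controls, a rise of 5.91 ± 0.23 (5.02 with spike-in scaling). Its ligand PLAU was at 12.20, 12.24 and 12.75 against 8.93, 8.49 and 9.54, and the inhibitor SERPINE2 was at 12.49, 12.61 and 12.95 against 9.43, 8.88 and 9.95. Protease, receptor and inhibitor were thus all higher with no overlap. MMP1, interstitial collagenase, was at 7.70, 8.85 and 8.35 against 3.22, 3.21 and 3.22. The wider list of matrix and TGF-beta genes had 12 rises (27.9%) and 13 falls (30.2%) among 43, near the 24.8% and 35.2% of all genes. LOX, which crosslinks collagen, was at 5.08, 4.98 and 4.36 against 8.91, 8.90 and 9.30. FN1, fibronectin, fell by 1.36 and ID1, a BMP target, differed by -3.08.

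Genes of cell contacts had a share of rises near that of all genes, with large falls in some members. Of 39 genes of junctions and integrins 17 fell (43.6% beside 35.2% of all genes) and 10 rose (25.6% beside 24.8%). With centring 12 fell and 11 rose. CDH1, E-cadherin, was at 5.92, 5.73 and 5.21 with Ota and at 8.86, 8.50 and 9.06 in controls, a difference of -3.18 ± 0.28, and CDH16, the kidney cadherin, was at 5.06, 4.93 and 4.86 against 8.88, 8.36 and 8.56. The groups were apart in both. CLDN16, a paracellular magnesium channel, was at 5.74, 6.07 and 7.82 against 9.50, 8.62 and 10.24, and its difference of -2.91 became -3.55 without the third Ota array. ITGB5, an integrin that binds vitronectin, rose by 2.24, while EPCAM and TJP1 differed by -0.10 and 0.02 and did not pass. Of 36 genes of proximal tubule identity 8 were measured, of which 6 fell and 1 rose. SLC4A4, the basolateral bicarbonate carrier, was at 8.71, 8.48 and 9.29 against 12.33, 12.36 and 12.34. PAX8 was at 7.69, 7.13 and 9.16 against 9.69, 9.61 and 9.43 and differed by -1.59, or by -2.17 without the third Ota array. DAB2, an adaptor of endocytosis, rose by 2.30.

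Of 26 genes linked to kidney injury 9 fell (34.6%) and 6 rose (23.1%), close to the shares of all genes. VCAM1, an adhesion molecule, was at 4.68, 5.41 and 4.15 with Ota and at 7.98, 8.60 and 7.92 in controls. HAVCR1, which encodes KIM-1, and LCN2, lipocalin 2, differed by -0.55 and -0.71 and did not pass. VIM fell by 1.13. Among 31 pumps and channels 9 rose (29.0% beside 24.8% of all genes) and 8 fell (25.8% beside 35.2%). With spike-in scaling 4 rose and 21 fell. TMEM37, a calcium channel subunit-like protein, was at 4.34, 2.82 and 4.94 against 9.88, 10.09 and 9.71, a difference of -5.86 that was -5.26 without the second Ota array, and its other probe sets ranged from -5.20 to 0.04. CLCN5, the endosomal chloride transporter of Dent disease, fell by 2.95.

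Mitochondrial genes were lower on balance. Of 61 mitochondrial ribosomal proteins 29 fell (47.5% beside 35.2% of all genes) and 14 rose (23.0% beside 24.8%). Of 33 complex I genes 16 fell (48.5%) and 8 rose (24.2%). The relative medians of the lists were -0.43 and -0.24. MRPS16 was at 6.57, 6.41 and 6.42 with Ota and at 10.38, 10.22 and 10.23 in controls. NDUFB10, a membrane arm subunit, was at 5.23, 6.40 and 5.17 against 10.20, 10.37 and 10.22. In NDUFB10, as in UCP2, the second Ota array was the highest of the 3 and still below every control. NDUFV2, a subunit of the same complex, was 1.45 higher as deposited, and 0.56 with the spike-ins (limma adjusted p = 0.060). With centring, complex I genes split evenly into 9 rises and 9 falls and the mitochondrial ribosome into 19 and 20.

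Interferon-stimulated and antigen presentation genes were lower, 18 of 33 falling and 6 rising, at a relative median of -0.84. PSMB9, an immunoproteasome subunit, was at 3.95, 3.64 and 4.51 with Ota and at 7.38, 7.89 and 7.96 in controls, and IRF9 and IRF7 fell, with differences of -2.97 and -2.35. OAS3 went against the list, at 7.27, 7.57 and 7.39 against 5.27, 4.90 and 5.90. NF-kB targets and cytokines had 7 rises and 3 falls among 20 (2 and 6 with spike-in scaling). IL6 was at 6.12, 6.07 and 10.23 against 2.39, 2.60 and 2.87, so the third Ota array stood about 4 log2 units above the other two. The controls were near background, and the fitted difference of 4.85 became 3.48 without that array and 5.53 and 5.56 without the first or the second. CCL20 was at 6.54, 8.31 and 9.44 against 5.58, 5.06 and 7.16, which overlap, and its rise of 2.17 was 1.28 with spike-in scaling (limma adjusted p = 0.090), 1.02 with array weights (adjusted p = 0.097), 1.49 without the third Ota array (adjusted p = 0.063), 2.95 without the first, 2.78 without the third control and 1.73 without the second control (adjusted p = 0.063). CCL2, a monocyte chemokine, fell by 2.97.

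Among 25 growth factor genes 9 fell (36% beside 35.2% of all genes) and 3 rose (12% beside 24.8%). HBEGF, a ligand of the EGF receptor, was at 8.39, 7.77 and 8.61 with Ota and at 4.77, 4.70 and 5.39 in controls, a rise of 3.30 ± 0.29, while EGFR fell by 1.30. FGF18 was at 6.47, 8.15 and 5.02 against 2.84, 2.83 and 2.83, with differences of 0.02 to 1.85 in its other probe sets. With controls near background, its fitted difference of 3.71 was 2.91 without the second Ota array and 4.48 without the third. Of 23 immediate early and feedback genes 10 rose and 7 fell (3 and 10 with spike-in scaling). JUND, an AP-1 subunit, was at 9.47, 9.15 and 9.67 against 12.08, 12.17 and 12.09, and EGR1 fell by 2.24, whereas EPHA2, an ephrin receptor, rose by 2.37.

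Metal-binding genes included uniform falls. Of 22 metallothioneins and zinc transporters 12 fell and 4 rose. MT1X, whose promoter is shown above, was at 10.12, 10.62 and 10.64 with Ota and at 12.62, 12.38 and 12.55 in controls, a difference of -2.06 ± 0.21, and MT1F fell by 2.72. Metallothionein genes are near-identical in sequence, so the split between them is uncertain. MTF1, the metal-responsive factor, was 1.37 higher as deposited and 0.49 with the spike-ins (limma adjusted p = 0.16). With probe sets marked as cross-hybridizing left out, the median of the list relative to all genes was 0.26 in place of -0.53.

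Antioxidant genes had no common direction, 9 of 30 falling (30%) and 5 rising (16.7%), beside 35.2% and 24.8% of all genes. NQO1 was at 6.67, 7.93 and 6.37 with Ota and at 9.30, 9.51 and 9.62 in controls, and GPX4, the lipid peroxide reductase, fell by 1.81, while GCLM, of glutathione synthesis, was at 10.70, 10.25 and 11.16 against 8.44, 8.62 and 8.99. HMOX1 differed by 0.21 and did not pass. In 28 apoptosis genes 7 fell (25%) and 6 rose (21.4%), both under the shares of all genes. BCL2L2, a protective BCL2 protein, was at 2.87, 2.60 and 2.64 against 6.27, 6.67 and 6.20, and BID, a death agonist, rose by 1.61. Autophagy had 9 rises (25.7%) and 8 falls (22.9%) among 35, and none and 19 with spike-in scaling. The lysosome list had 13 rises (37.1%) and 11 falls (31.4%) among 35, and none and 22 with spike-in scaling. Of 7 AHR genes NQO1 and ARNT fell and CYP1B1, a sensitive target, differed by 0.11 and did not pass.

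Several lists of growth and nuclear function had more rises than falls as deposited but more falls with spike-in scaling. Ribosome biogenesis had 19 rises and 3 falls among 36 (2 and 8 with the spike-ins), led by TCOF1, which serves rRNA transcription, at 8.41, 8.28 and 8.33 against 5.83, 5.61 and 5.10. Nuclear pore and envelope genes had 24 rises and 7 falls among 47 (3 and 15), with POM121, a membrane nucleoporin, at 8.47, 8.77 and 8.59 against 4.70, 4.57 and 5.07. Sterol and fatty acid synthesis had 10 rises and 2 falls among 25 (1 and 10). ELOVL6, a fatty acid elongase, rose by 2.47 in the probe set used, whereas its other probe sets gave -1.59 and -1.43. The list of RNA polymerase II and Mediator differed from these, since more of its 42 genes fell (18) than rose (14) as deposited too. POLR2A and POLR2B, the largest subunits, rose by 1.66 and 1.81, while the small subunits POLR2I and POLR2L fell, with differences of -2.41 and -2.37. MED26, of Mediator, rose by 2.50. In glycolysis and hypoxia 16 of 35 rose and 11 fell (3 and 17), and TXNIP, a glucose-responsive arrestin, was at 7.95, 8.57 and 6.54 against 4.31, 3.72 and 3.34. Of 12 hormone genes 5 rose and 3 fell (3 and 6), and INHBE, an activin subunit, was at 8.40, 7.08 and 8.52 against 11.58, 11.56 and 11.83.

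The changes at 72 h were set against those at 24 h through the difference of the 2 effects, each against its own controls. This difference passed the test for 5313 genes (49.5%), 3178 of them higher at 72 h (29.6%) and 2135 lower (19.9%); scaled to the spike-ins, 5908 were higher and 524 lower, with quantile normalization 2797 and 2512, and with centring the balance turned, 2520 higher and 2856 lower. Of the genes called at both times as deposited, 3495 had the same direction and 652 opposite ones. At 24 h the spike-ins averaged 10.04, 9.88 and 9.58 on the Ota arrays and 7.98, 8.17 and 7.80 on the controls. The list counts and fold changes that follow are as deposited, and the part of the spike-in levels in them was not tested. Of the ER chaperones 21 of 26 were lower in the difference and 1 higher, and HYOU1 stood at 0.39 at 24 h (limma adjusted p = 0.17) and -3.23 at 72 h. Of 23 ATF4 targets 15 were lower and 2 higher. ASNS rose by 0.91 at 24 h and ATF3, a stress-induced repressor, by 3.61, while their differences at 72 h were -2.68 and -1.03. The 24 h rise of ASNS is smaller than the gap between the groups in spike-in level at 24 h. With spike-in scaling it is therefore a fall, while ATF3 still rises. Of 41 mitotic genes 39 were higher in the difference and none lower, with a median log2 fold change of -0.66 at 24 h and 1.15 at 72 h. Of 44 replication genes 33 were higher and 1 lower. CCNE1 fell by 2.03 at 24 h and rose by 2.31 at 72 h, and TM4SF1 fell by 1.55 and rose by 3.53. In CCNE1 and TM4SF1 the effect therefore changed sign between the times.

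**Figure D5:**
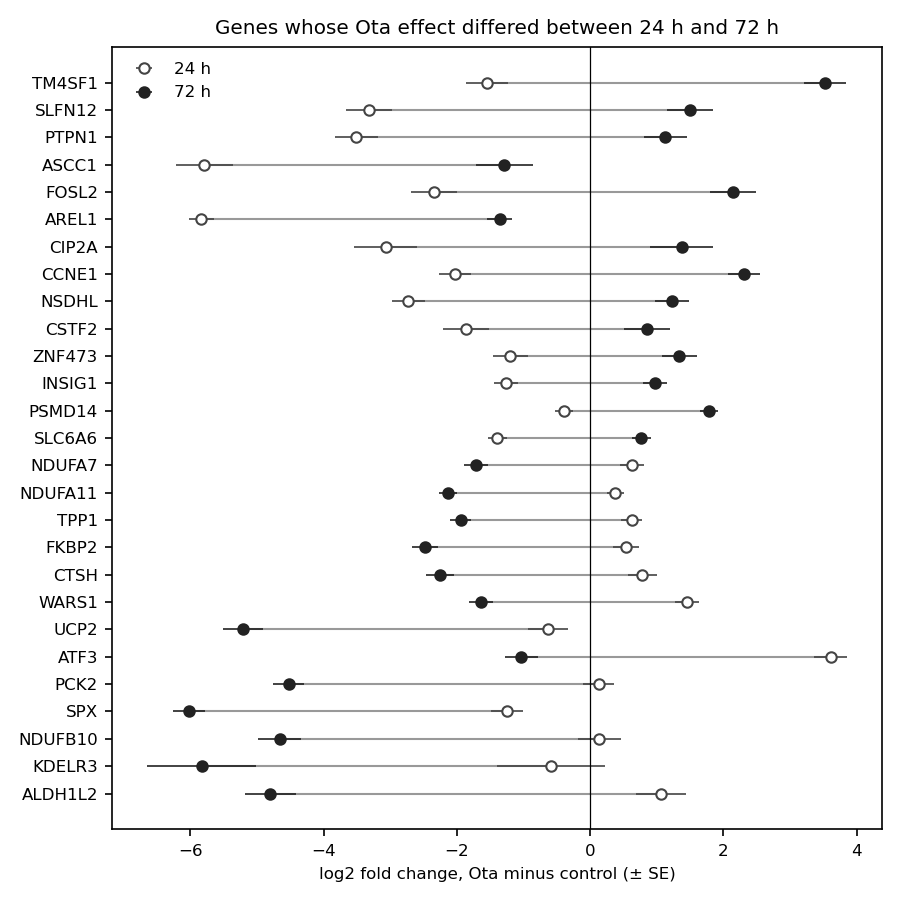
Log2 fold change (Ota minus control) ± SE of 27 genes at 24 h (open) and 72 h (filled), from the limma fit of all 12 arrays. Values are as deposited, not scaled to the spike-ins. The genes were named by the size or the sign change of the difference; TM4SF1 at the top moves from -1.55 to 3.53 and ALDH1L2 at the bottom from 1.06 to -4.80.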

How the data were processed

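Total RNA of HK-2 cells was hybridised to 12 1-colour Affymetrix arrays. The authors deposited log2 values of 54675 probe sets normalized with GCRMA, per the submitters' processing notes, whose version is not given in the sources used here; their scale is log2 and no pseudocount was added. GCRMA corrects background by probe sequence and makes the arrays' distributions alike, which bears on any change shared by most genes. A gene was represented by its probe set of highest mean among 1-symbol probe sets that exceeded 4 on 3 arrays or more, which left 10729 genes. The fit was limma 3.58.1 (R 4.3.3) with 4 group means, the contrast Ota minus control at 72 h, and Benjamini-Hochberg adjustment over all genes at 0.05. The fit was tested on simulated data. Precision is limited by 3 arrays a group; the median SE of a log2 fold change was 0.21. The members of the comparison, the 42 gene lists and the rule for named genes were chosen with earlier results of these data known. Named were the 15 largest rises and falls with both means over 5 and the 8 largest from or to a mean under 4. The 6 largest differences between times in each direction, past the test of the difference and with both 72 h means over 5, were named too. All these sets were drawn from genes called at 72 h with no overlap between groups and all probe sets in one direction. Up to 4 members per list with 1 of the other direction, and cell markers over the filter, were also named. Other genes named in a list were chosen after their values were seen. Motifs were searched in RefSeq promoters (GRCh38.p14). Alternatives covered scaling, filter, probe set choice, moderation, array weights, the replicate block, each array left out and stricter thresholds.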

Additional observations from a re-analysis of the deposited data

Results flagged for a closer look

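The effect of Ota differed between 72 h and 24 h, by limma's test of the difference itself, in 164 of the 224 named genes (73.2%). Named genes were chosen partly for large changes and differences, so this share says nothing beside the 49.5% of all genes tested. The named genes given here number 27. They are the 20 genes called in opposite directions at the 2 times as deposited. Added to these are those with the 6 largest differences in each direction under a rule. This rule took genes called at 72 h with no overlap between groups, both 72 h means over 5 and all probe sets in one direction. Genes not called at 72 h were left out whatever their difference between times. Each value is the log2 fold change at 72 h minus that at 24 h.

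In 14 genes the difference was positive. TM4SF1 stood at 5.08, SLFN12 at 4.82, the phosphatase PTPN1 at 4.64, ASCC1 at 4.50, the AP-1 subunit FOSL2 at 4.49, the ubiquitin ligase AREL1 at 4.48 and the PP2A inhibitor CIP2A at 4.44. AREL1 and ASCC1 fell at both times, with log2 fold changes of -5.84 and -5.79 at 24 h and -1.36 and -1.29 at 72 h. CCNE1 stood at 4.34, the sterol enzyme NSDHL at 3.96 and the sterol sensor INSIG1 at 2.25. The histone message factors CSTF2 and ZNF473 stood at 2.72 and 2.54, the proteasome subunit PSMD14 at 2.18 and the taurine carrier SLC6A6 at 2.17. The other probe sets of FOSL2 gave log2 fold changes of -0.20 to 0.51 at 72 h.

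In the other genes the difference was negative. ALDH1L2, whose Ota mean of 3.71 at 72 h was near background, had a fitted difference of -5.86. KDELR3 stood at -5.24, NDUFB10 at -4.80, SPX at -4.78, PCK2 at -4.65, ATF3 at -4.64 and UCP2 at -4.57. The tryptophan enzyme WARS1 stood at -3.09, the lysosomal proteases CTSH and TPP1 at -3.04 and -2.57, and the ER prolyl isomerase FKBP2 at -3.02. The complex I subunits NDUFA11 and NDUFA7 stood at -2.51 and -2.34. Poly-A spike-ins averaged 8.91 on the Ota arrays and 8.02 on the controls at 72 h. At 24 h they were at 10.04, 9.88 and 9.58 against 7.98, 8.17 and 7.80. Scaling to them lowers every fold change, more so at 24 h. Of the 24 h rises among the sign changes, only that of ATF3 (3.61) exceeds the 24 h gap between the groups. The 24 h falls stay falls, and the 72 h rises of CSTF2 and SLC6A6 turn to -0.0334 and -0.12. The part of the spike-ins in these differences was not otherwise tested.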

How the results depend on the processing

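Of 219 named genes called at 72 h, 192 kept their call under every alternative run, and 6 lost it without 1 array: ASCC1, CCL20, CIP2A, CSTF2, NES and PTPRO. Without each array in turn the number of genes called was 5753 to 6124, with 2283 to 2532 rises and 3403 to 3592 falls. Scaling to spike-ins gave 555 rises and 6718 falls, and for the difference between times 5908 higher and 524 lower. Centring gave 3808 rises and 2984 falls, and for the difference 2520 higher and 2856 lower. A required log2 fold change of 1 left 3994 genes, 1392 of them rises. For genes lower in the difference, array weights, whose estimate did not converge fully, gave 3297 and an adjusted p under 0.01 gave 1400. The median log2 fold change was -0.0856 with array weights, 0.17 centred, -0.0473 without cross-hybridizing probe sets, -0.0888 as a mean over probe sets, 0.0153 without a filter, -0.0408 with quantile normalization and -1.003 with spike-ins. Direction turned for CALCOCO2 (0.20) and TUT7 (-0.0221) without cross-hybridizing probe sets, for ELOVL6 (-0.18) and SAR1B (-0.43) as a mean over probe sets, and with spike-ins for CSTF2 (-0.0334), NES (-0.38), PTPRO (-0.24), SLC6A6 (-0.12) and SYNPO (-0.67); the cause was not tested. The alternative of no pseudocount needed no run, since the values are log2 as deposited. The median of 8 of the 42 lists relative to all genes changed sign under some alternative, and that of 37 moved by more than the spread between arrays (11 under a scaling alternative). Same-numbered arrays had correlations in their deviations of -0.05, 0.14 and 0.19 at 72 h and 0.12, 0.23 and 0.27 at 24 h; not every pair was over 0.1, so the numbers were not taken to pair the samples; with the replicate block 6661 genes were called, 2776 rises and 3885 falls, and 5553 in the difference.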

Other observations

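Genes that fell were shorter at the median than genes that rose. By RefSeq gene spans, which 99.9% of tested genes had, the median was 31.1 kb over all tested genes, 36.6 kb over those that rose and 23.8 kb over those that fell. Over genes that changed by at least 2 on the log2 scale it was 29.2 kb for rises, below that of all tested genes, and 16.01 kb for falls. Among the 2144 shortest genes, up to 9.91 kb, 48.6% fell and 16.7% rose, and among the 2144 genes from 43.6 to 92.5 kb 26.6% fell and 30.5% rose. Among the 2144 longest 32.5% fell and 23.8% rose, so the shares did not move one way with length. These shares are descriptions with no test, and genes are not independent replicates.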
